A study of Drosophila melanogaster with 2 samples.

Results

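The microRNA genes of the fly were taken as every gene of the Ensembl BDGP6 annotation whose symbol starts with mir-, a rule that also takes in bantam and let-7, which that annotation writes as mir-ban and mir-let7. This gave 262 of 23769 annotated genes, of which 260 lie on the 6 main chromosome arms used below and 2 on a ribosomal DNA scaffold with no regions. Each is the hairpin alone, between 50 and 174 bp long with a median of 92 bp. Hairpins on the same strand with gaps of at most 10 kb were counted once, as a cluster, because such neighbours can share nearby regions. Not all members of a cluster do. The grouping gave 203 clusters, of which 181 hold 1 hairpin. The other 22 hold the remaining 79 hairpins, up to 12 in a cluster. The rule uses names and positions only, and no ChIP-seq value.

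The study measured where the transcription factor abrupt (ab, a zinc finger protein of the BTB family) sits on chromatin in whole Drosophila melanogaster embryos of mixed sex, aged 0 to 24 hours. The line, labelled strain ab-GFP, stably carries a transgene whose ab protein ends in GFP, and the chromatin was immunoprecipitated with an antibody to GFP. The labels name no promoter for this transgene. There were 2 biological replicates and 1 group, so no comparison between conditions and no test was possible. All tissues of the embryo were in 1 sample, and the age range covers all of embryogenesis, so a region cannot be assigned to a cell type or stage.

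Each region carries a summit and a signal score, which is the authors' own measure of enrichment and its scale is unknown. The reproducible list held 1664 peaks with scores from 51.8 to 1007 and a median of 75.1; the pooled list, made from both replicates together and less strict, held 21376 regions from 14.9 up. The relaxed list of replicate 1 held 29996 regions on these arms and that of replicate 2 held 30000. Read depth is unknown, so the precision of a single score is unknown, and the spread was read from the replicates: at peaks found in both, the log2 ratio of replicate 2 to replicate 1 had an SD of 0.88, a factor of 1.84. The binomial intervals below cover counting error only.

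A microRNA is cut from a hairpin in a longer primary transcript, first by Drosha with Pasha in the nucleus and then by Dicer-1, and the strand that is kept guides Argonaute-1 to messenger RNAs. Pairing rests mainly on the seed, bases 2 to 8 of the mature RNA. Since the hairpin is only a small piece of the primary transcript, the promoter that drives it can lie well upstream, often at the start of a protein-coding host gene or of a long non-coding RNA. In flies the let-7 RNA is known to repress ab itself during metamorphosis, so ab is a microRNA target as well as a transcription factor.

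The mature RNAs of the clusters the results turn on, and of let-7, are given here from 5′ to 3′ with the seed in capitals, to show which of them share a seed. They were read from the RefSeq annotation and genome of Release 6, the assembly also called dm6, which held mature RNAs for all 260 genes.
miR-279, 3′ arm: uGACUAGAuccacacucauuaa
miR-996, 3′ arm: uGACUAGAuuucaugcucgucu
miR-92a, 3′ arm: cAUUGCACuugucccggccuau
miR-92b, 3′ arm: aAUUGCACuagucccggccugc
miR-9a, 5′ arm: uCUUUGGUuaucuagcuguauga
bantam, 3′ arm: uGAGAUCAuuuugaaagcugauu
miR-282, 5′ arm: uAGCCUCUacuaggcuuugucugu
miR-275, 3′ arm: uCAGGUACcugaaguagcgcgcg
miR-305, 5′ arm: aUUGUACUucaucaggugcucug
miR-375, 3′ arm: uUUGUUCGuuuggcuuaaguua
miR-33, 5′ arm: gUGCAUUGuagucgcauuguc
let-7, 5′ arm: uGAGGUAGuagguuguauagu
The seed GACUAGA is common to miR-279 and miR-996, whose hairpins share a cluster, and AUUGCAC to miR-92a and miR-92b, which do too.

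Stretches of 101 bases centred on the summit are shown for 4 peaks, the first pair because they carry the sequence features described further on and the other pair for comparison. All are on the plus strand of dm6, which is also the strand of the hairpin. Capitals mark TATAAA in the first and the complement of the miR-92 seed, GTGCAAT, in the second, and the other pair has neither.
mir-279/mir-996, chr3R:29214436-29214536: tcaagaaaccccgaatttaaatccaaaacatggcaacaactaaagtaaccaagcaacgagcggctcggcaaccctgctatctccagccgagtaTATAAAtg
mir-92a, chr3R:25646949-25647049: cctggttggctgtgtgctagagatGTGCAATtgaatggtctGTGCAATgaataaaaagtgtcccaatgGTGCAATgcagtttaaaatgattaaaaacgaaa
mir-282, chr3L:3250280-3250380: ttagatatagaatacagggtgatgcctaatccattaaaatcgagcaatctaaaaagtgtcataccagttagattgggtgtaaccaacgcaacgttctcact
bantam, chr3L:640686-640786: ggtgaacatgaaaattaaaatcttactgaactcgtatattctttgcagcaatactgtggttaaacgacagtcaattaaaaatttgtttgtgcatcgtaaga

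Few microRNA hairpins had a reproducible peak beside them. A summit lay within 1 kb of 9 of 260 genes, or 3.46% (95% Wilson interval 1.83 to 6.45%), where the same window took in 9.07% of all annotated genes, 13.2% of protein-coding genes and 7.28% of tRNA, snoRNA and snRNA genes. Counted once per cluster the figure was 8 of 203, or 3.94% (2.01 to 7.58%). A window around a long gene covers more sequence than one around a hairpin, so the other small RNA genes are nearest to hairpins in length; their share lay inside the interval for clusters and above that for single genes. Of all bases on the arms, 2.3% lay within 1 kb of a reproducible summit, which is inside both intervals.

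With the window widened to 5 kb, 29 of 203 clusters, or 14.3% (10.1 to 19.8%), had a reproducible summit, against 17.8% of all genes, 24% of protein-coding genes, 21.2% of the other small RNA genes and 9.97% of bases. The remaining 174 clusters had none. In the pooled list, 84 genes and 72 clusters had a summit within 1 kb. For clusters this was 35.5% (29.2 to 42.3%), where the background was 47.7% of all genes, 63.4% of protein-coding genes, 47.2% of the other small RNA genes and 24.5% of bases. Thus in both lists the share of microRNA clusters within 1 kb lay between the share of bases and the share of annotated genes.

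**Figure D1:**
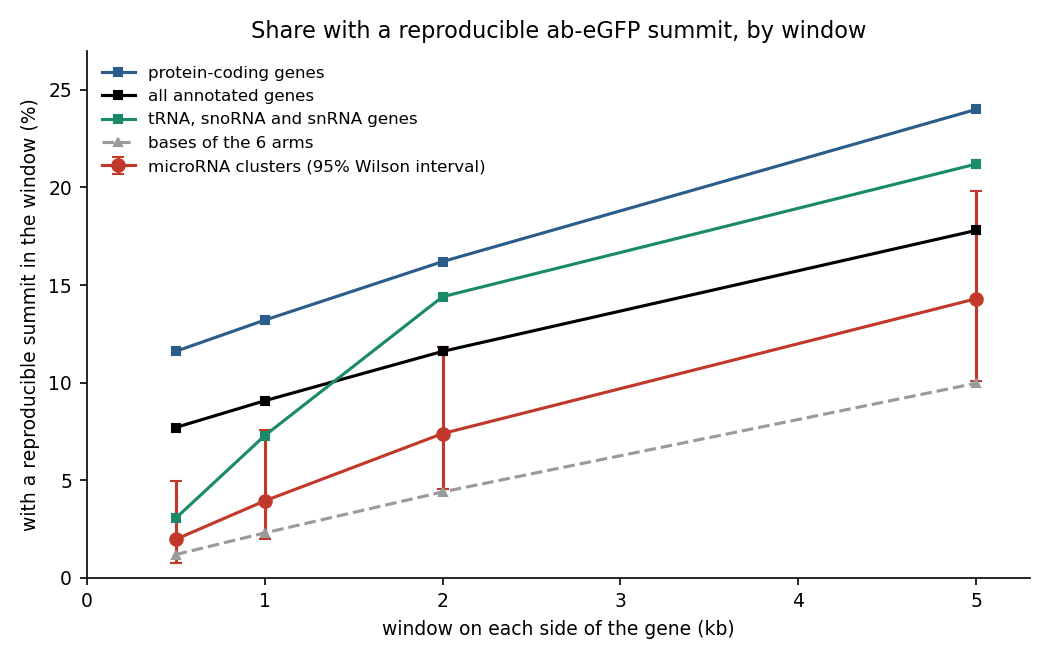
Percentage of microRNA clusters, of other gene types and of bases with a reproducible ab-eGFP summit inside a window of 0.5, 1, 2 or 5 kb on each side; bars on the microRNA points are 95% Wilson intervals (n = 203 clusters). The microRNA clusters run from 1.97% at 0.5 kb to 14.3% at 5 kb, below all annotated genes and above the bases at each window.

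Within 1 kb of a hairpin, replicate 1 had a region at 103 clusters and replicate 2 at 91, of which 55 were common (53.4% of the first and 60.4% of the second), 48 were in replicate 1 alone and 36 in replicate 2 alone. These are 50.7% and 44.8% of clusters, against 58.6% and 53.7% of all genes and 36.2% and 29.9% of bases. Lists this wide overlap in part by their width alone, so the count of 55 is no measure of agreement. With the strongest 1664 regions of each replicate, the counts were 9 and 9 clusters, of which 7 were common, or 77.8% of each. At the nearest reproducible peaks of the 29 clusters, both replicates had a summit within 200 bp at 28, and replicate 2 had the higher score at 19 of these, where it was the higher at 52.3% of all peaks. In 19 of the 29, both replicates had the peak among their strongest 1664, against 53.5% of all peaks.

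The strongest peak within 5 kb of any microRNA cluster was that of mir-279 and mir-996. miR-279 is known for limiting the number of carbon dioxide sensing neurons in the fly head, and miR-996, with the same seed, has overlapping functions. The peak (3R, 29214304 to 29214590) scored 123.1 in replicate 1, 172.9 in replicate 2 and 300.6 in the pooled list, where it ranked 42. Its summit was 1099 bp upstream of mir-279 and 76 bp upstream of the annotated start of lncRNA:CR31044, the non-coding RNA that holds both hairpins in its exons. The TATAAA in the sequence above begins 33 bp before that start. This word was looked for only after the sequence had been seen; it occurs on either strand within 50 bp of the summit at 15.8% of all reproducible peaks.

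A second peak of the locus lay 2911 bp downstream of mir-996, with 23.8 in replicate 1, 66.7 in replicate 2 and 90.5 pooled. It was 19 bp from the start of eEF1gamma, a translation elongation factor gene that neighbours the microRNA transcript. Between these, mir-279 had a weaker pooled region of 33.3 at 599 bp downstream. In the main peak the replicates differed by a factor of 1.41, which is less than the spread of 1.84 over all peaks.

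The bantam hairpin (mir-ban), whose RNA promotes growth and represses the cell death gene hid, was flanked by a pair of reproducible peaks, neither within 1 kb. The upstream one (3L, 640481 to 640990) was 1472 bp away and scored 52.3 in replicate 1, 66.0 in replicate 2 and 128.0 pooled. It lay in an exon of lncRNA:CR43334, the bantam primary transcript, 1022 bp past one of its annotated starts. The downstream one (3L, 644068 to 644577) was 2035 bp away and outside any gene, with 55.8, 49.4 and 107.5. A further peak lay at an outer start of the transcript, 13717 bp from the hairpin, and scored 14.6 in replicate 1, 24.2 in replicate 2 and 54.0 pooled. Closer in, 590 bp upstream of the hairpin, a region of 40.7 was in the pooled list but not in the reproducible list. It scored 9.86 in replicate 1 and 32.9 in replicate 2.

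The strongest peak within 1 kb of a hairpin was that of mir-282, the seed of which (AGCCUCU) no other cluster shares. Its peak (3L, 3250075 to 3250584) scored 71.2 in replicate 1, 92.0 in replicate 2 and 158.3 pooled. The summit lay 692 bp upstream of the hairpin and 264 bp upstream of a start of its host, lncRNA:CR43626, with the nearest protein-coding start 2315 bp away. It ranked 216 by score in replicate 1 and 110 in replicate 2.

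The mir-92a hairpin lies in an intron of jigr1 and mir-92b in an exon of it. This gene encodes a DNA-binding protein. The mir-92b hairpin also lies in an exon of a non-coding host, lncRNA:CR45917, which has no reproducible peak within 1 kb of its start. The peak (3R, 25646744 to 25647253) was 399 bp downstream of mir-92a and 247 bp upstream of an inner start of jigr1, and scored 56.1 in replicate 1, 41.1 in replicate 2 and 96.2 pooled. It is the only one within 1 kb that was higher in replicate 1, among the 7 with a value in both. Its 101 bases hold 3 copies of GTGCAAT on the sense strand of jigr1, the complement of the seed of miR-92a and miR-92b. This was seen only on reading the sequence. All 101 bases lie before that inner start, and a match of letters is a description that shows no binding. GTGCAAT occurs on either strand at 24 of all 1664 peaks (1.44%), and this is the only one with 3 or more copies on 1 strand. Of the 33 distinct peaks within 5 kb of a microRNA cluster, 2 had the complement of one of that cluster's own seeds on the hairpin strand, the other being a single match at mir-4972.

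**Figure D2:**
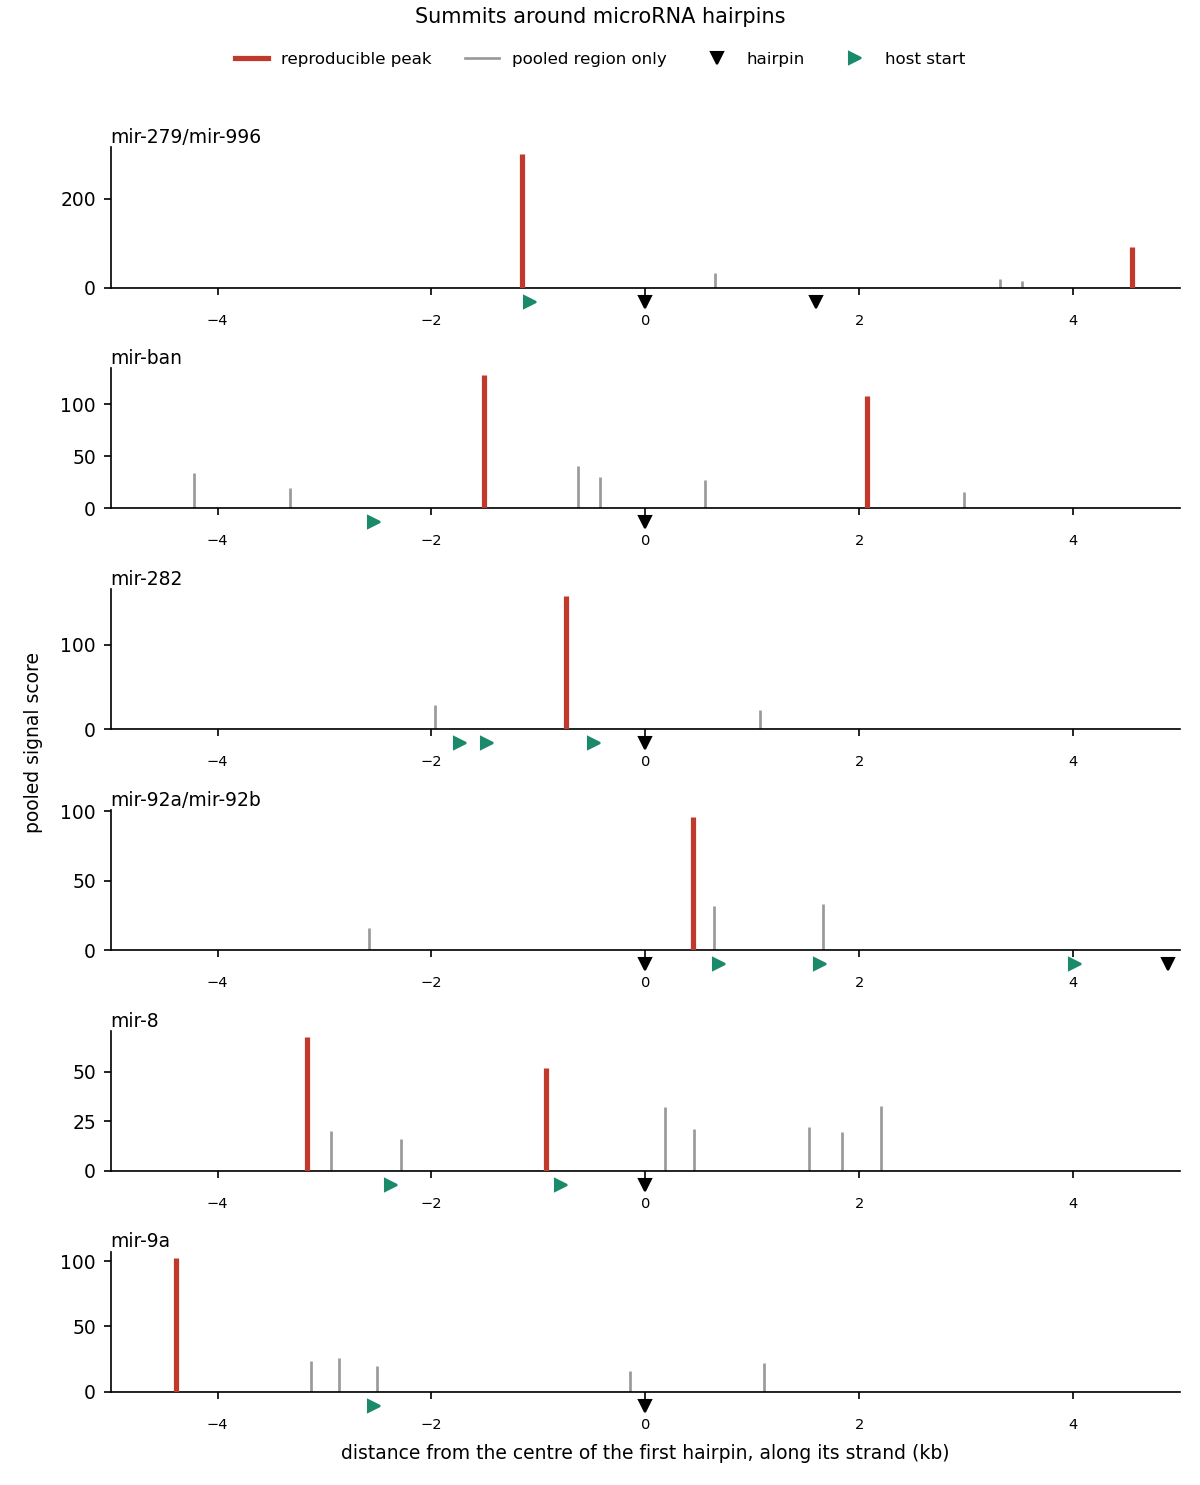
Summits of reproducible peaks (red) and of pooled regions that are not reproducible peaks (grey) within 5 kb of 6 microRNA loci. Pooled signal score is drawn against distance along the strand of the hairpin. Black triangles are hairpins and green triangles are annotated starts of host genes. The mir-279/mir-996 peak of 300.6 and the mir-282 peak of 158.3 sit just before a host start, bantam has a peak on each side, and the mir-9a peak lies over 4 kb upstream.

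Among the other clusters with a summit within 1 kb, mir-275 lies in a non-coding host, lncRNA:CR43857, and mir-305, in the same cluster, lies past its end with no annotated host. miR-305 is known to act in gut stem cells of adult flies, and miR-275 to be needed for egg production in mosquitoes. Their peak (2L, 7425159 to 7425668), in an exon of that host, was 381 bp upstream of mir-275 and 1452 bp from the start of muc. It scored 30.9 in replicate 1, 42.1 in replicate 2 and 63.9 pooled.

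For mir-375, whose counterpart in mammals acts in insulin-secreting cells, the summit (2L, 856585 to 857094) was 702 bp upstream of the hairpin and 563 bp upstream of the start of its host, lncRNA:CR45345. Its scores were 26.3 in replicate 1, 38.0 in replicate 2 and 67.9 pooled. The mir-9378 hairpin lies inside CG17124, and its intronic peak (2L, 10752003 to 10752512) was 320 bp upstream, with 25.0, 41.0 and 57.2. In all of these the replicate 2 score was the higher by 1.36 to 1.64 times, within the spread over all peaks.

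The summit nearest to any hairpin was 53 bp downstream of mir-9377, in an intron of Tis11, an mRNA decay factor, and 4787 bp from the Tis11 start. This peak (X, 12665066 to 12665575) scored 50.05 in replicate 2 and 56.7 pooled. Replicate 1 had no summit within 200 bp of it and only an overlapping region of 25.6, with its summit 385 bp from the hairpin. It was the only cluster within 5 kb of a reproducible summit among the 39 on X, which held 308 of the peaks. On the other arms the counts were 8 of 41 on 2L, 5 of 41 on 2R, 7 of 31 on 3L and 8 of 49 on 3R, and chromosome 4 had 0 of 2.

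The other pair within 1 kb is on 2R. mir-8, which acts in the fat body on insulin signalling and growth, had the weakest of the 8 peaks (2R, 16830294 to 16830803), 883 bp upstream of the hairpin and 140 bp upstream of a start of lncRNA:CR43650. The scores were 15.1 in replicate 1, 36.9 in replicate 2 and 52.2 pooled, which is close to the lowest score in the reproducible list, 51.8. A stronger peak lay further up, at 3122 bp, with 37.3, 28.0 and 67.4. The mir-4981 hairpin lies outside any gene. Its peak (2R, 8014293 to 8014492), 853 bp upstream, was strong and even between replicates, with 76.9, 80.9 and 151.4, and its nearest start was that of CG14762, 641 bp away.

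Over these 8 clusters the median pooled score was 65.9, below the median of 75.1 over all reproducible peaks, and 3 of the 8 were above it. Over all 29 clusters with a summit up to 5 kb away the median was 73.7, and 13 were above it. The summit was upstream of the nearest hairpin in 22 of the 29 and downstream in 7, and in none did it lie inside the hairpin. The same count was not made for other genes, so these counts have no background beside them and show no preference of microRNAs.

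**Figure D3:**
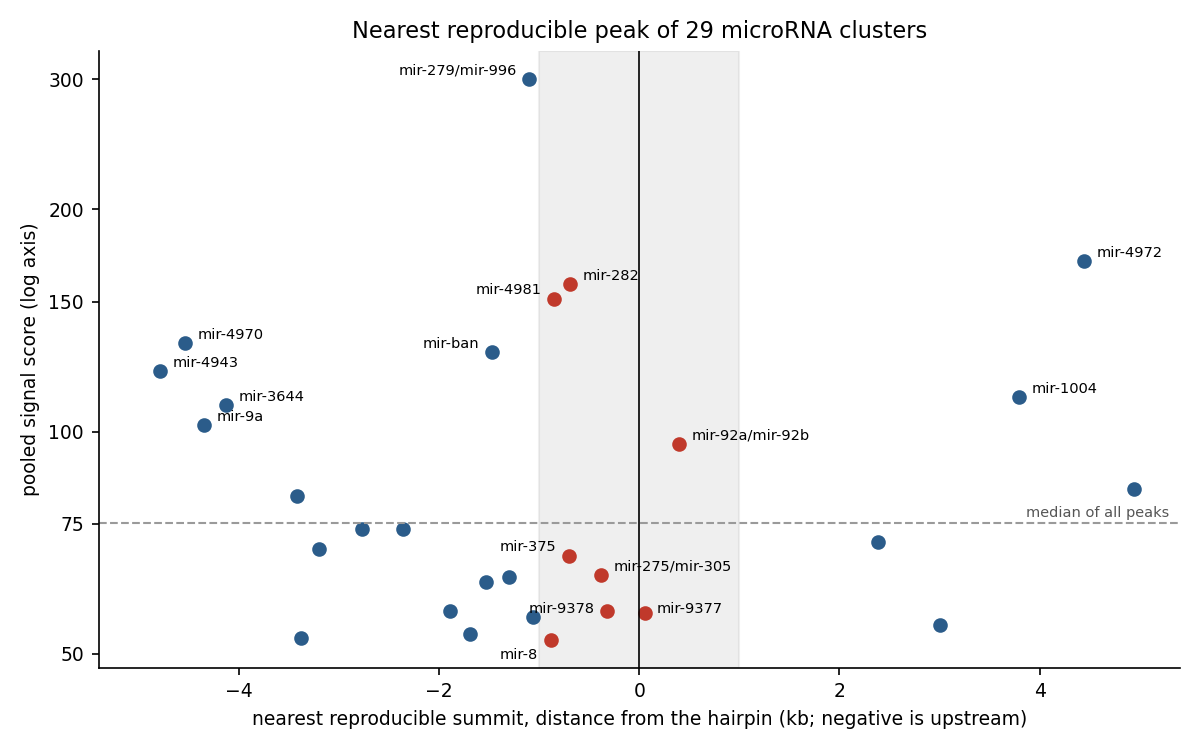
Pooled signal score (log axis) against the distance of the nearest reproducible summit from the hairpin for 29 microRNA clusters, with upstream negative; red points are within 1 kb, blue points between 1 and 5 kb, and the dashed line is the median of all reproducible peaks, 75.1. Most points lie upstream, a split that was not counted for other genes, and the highest is mir-279/mir-996 at 300.6.

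Of the 21 clusters whose nearest reproducible summit was between 1 and 5 kb away, the 15 nearest are given in order of distance, leaving out mir-279 and bantam, which are above. mir-2493 had its peak 7 bp from the start of its host CG42788 and 1060 bp from the hairpin; it scored 8.63 in replicate 1 and 42.4 in replicate 2, the most uneven of all, and 56.0 pooled. Next came mir-4985 in Fatp3, a fatty acid transport protein gene, at 1298 bp with 20.2, 42.6 and 63.5. mir-2283, in a gene pair with the histone demethylase gene Kdm3, followed at 1532 bp with 22.9, 39.2 and 62.6. In all of these replicate 2 had the higher score.

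The mir-281-1 and mir-281-2 hairpins, inside Oda, an inhibitor of ornithine decarboxylase, had a peak at 1691 bp with 18.8 in replicate 1, 24.6 in replicate 2 and 53.1 pooled. mir-4968, in the kinase cofactor gene Mob2, had one at 1887 bp with 18.4, 39.8 and 57.1. The peaks of mir-4982 (2356 bp, 41.1, 33.9 and 73.7, at the start of its host Hs3st-A), mir-955 (2387 bp, 44.3, 29.6 and 70.9) and mir-9382 (2771 bp, 47.3, 30.4 and 73.7, at a start of MRP) were higher in replicate 1. The nearest start for mir-955 was that of CG14968 and not of a host.

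Further out, mir-4918 had a peak at 3004 bp, at Sgt1, with 18.6 in replicate 1, 36.5 in replicate 2 and 54.7 pooled. mir-4949 had one at 3198 bp with 30.6, 32.5 and 69.3. mir-33 lies in an intron of SREBP, which encodes the transcription factor that controls lipid synthesis, and miR-33 in mammals acts on the same pathway. Its nearest summit was 3382 bp upstream, with 37.1, 25.3 and 52.6, and a stronger one 3584 bp upstream, 442 bp inside the SREBP start, had 37.1, 49.0 and 86.7. Both matched the same region of replicate 1.

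In the cluster of mir-34, mir-277 and mir-317, microRNAs studied in ageing, the peak was 3423 bp upstream of mir-317, with 25.4 in replicate 1, 54.2 in replicate 2 and 81.8 pooled. It lay over 5 kb from mir-34 and mir-277. mir-1004 completes the 15, with a peak at 3796 bp, 216 bp before bowl, a zinc finger gene of leg and gut development, and scores of 41.7, 77.7 and 111.4. Among the 6 farther ones, the highest was 170.0 at mir-4972 in for, a cyclic GMP dependent kinase gene.

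mir-9a, which limits the number of sensory organ precursors by repressing senseless, belonged to these 6. Its peak (3L, 19560525 to 19561034), 4351 bp upstream, scored 57.3 in replicate 1, 50.3 in replicate 2 and 102.2 pooled. It was 410 bp from the start of lncRNA:CR44676, and the host that holds the hairpin, lncRNA:CR45916, has no reproducible peak within 1 kb of a start. Beside the hairpin itself, 104 bp upstream, there was only a pooled region of 16.1.

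**Figure D4:**
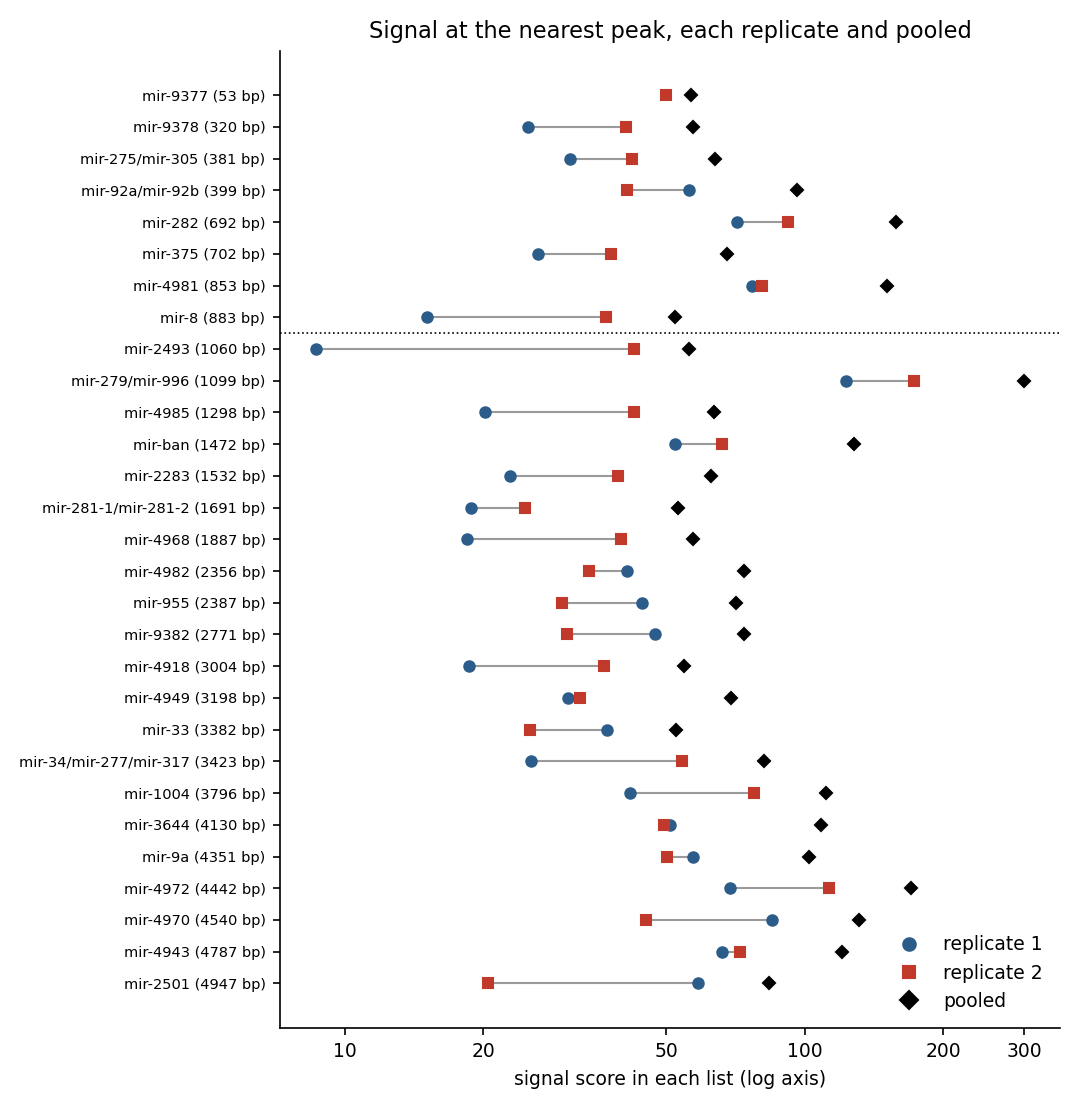
Signal score (log axis) at the nearest reproducible peak of each of 29 microRNA clusters, in order of distance, in replicate 1 (blue circles), replicate 2 (red squares) and the pooled list (black diamonds); clusters above the dotted line have the summit within 1 kb. Replicate 2 is the higher at 19 of the 28 clusters with both values, mir-2493 has the widest gap and mir-9377 has no value in replicate 1.

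Of the 29 nearest summits, 18 were within 500 bp of an annotated start. This is near the share over all reproducible peaks, 56.4%, and does not set the microRNA peaks apart. Of the 29 nearest summits, 14 lay within 1 kb of a start of a gene that holds the hairpin on the same strand, 6 others within 500 bp of the start of another gene, and 9 at neither. The window was wider for host starts, and hosts were taken first, so the 14 and the 6 were not counted alike. Over the 156 clusters with a host, 30 had a reproducible peak within 1 kb of a host start, and 14 of these had no reproducible summit within 5 kb of a hairpin. The farthest was 115231 bp away, at the start of Glut4EF, the host of mir-9371.

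Host genes were taken one by one to set them beside other genes. A reproducible summit lay within 1 kb of a start at 27 of 128 protein-coding hosts, or 21.1% (14.9 to 29%), against 9.79% of protein-coding genes that hold no microRNA. Some overlapping hosts, such as Kdm3 and CG8176, share a start and a peak and were each counted, which the interval ignores. By cluster, 24 of 124 in protein-coding hosts had such a peak. The hosts are long, with a median of 14094.5 bp against 2166 bp over all protein-coding genes, and have a median of 2 starts against 1. With both groups kept between 2 lengths, the quartiles of the hosts, the shares were 28.1% of 64 hosts (18.6 to 40.1%) and 15% of 3472 other genes (13.9 to 16.3%). Among genes with 2 or more starts they were 31.9% of 72 hosts (22.3 to 43.4%) and 17.7% of 3627 others (16.5 to 19%). The band of lengths ran from 3997 to 29776 bp, and lengths inside it were not matched. Length and number of starts were taken 1 at a time and never together. These splits were chosen after the first shares were seen, and no test was made.

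Non-coding hosts showed 7 of 37 with a peak at a start, or 18.9% (9.48 to 34.2%), against 4.71% of non-coding RNA genes that hold no microRNA. These 7 were the hosts of mir-279 and mir-996, mir-282, mir-375, bantam, mir-8, the mir-281 pair and mir-bft. The peak of the mir-281 pair also counts above for its protein-coding host, Oda. Non-coding hosts had a median length of 6436 bp and a median of 1 start. They were not set beside other non-coding genes of like length or number of starts. mir-bft, also called mir-263a, protects sensory bristle cells from death. Its hairpin had no reproducible summit within 5 kb, and the peak at its host start, 17569 bp away, scored 10.6 in replicate 1, 47.4 in replicate 2 and 65.7 pooled.

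**Figure D5:**
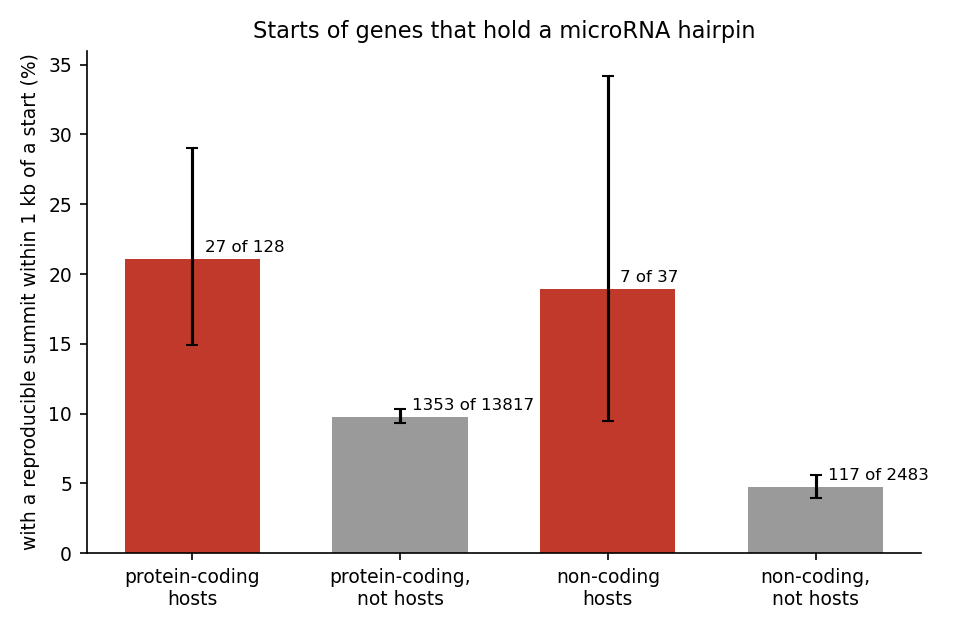
Percentage of genes with a reproducible summit within 1 kb of an annotated start, for protein-coding and non-coding genes that hold a microRNA hairpin (red) and for those that hold none (grey); bars are 95% Wilson intervals. The hosts stand at 21.1% and 18.9%, the others at 9.79% and 4.71%. Overlapping genes that share a start and a peak are each counted.

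Well-known genes were among the protein-coding hosts with a peak at a start but none near the hairpin. The start of spi, the main activating ligand of the EGF receptor, had a peak (2L, 19575454 to 19575963) 5445 bp from the cluster of mir-2a-1, mir-2a-2 and mir-2b-2, with 35.5 in replicate 1, 43.1 in replicate 2 and 78.2 pooled. The start of kis, a chromatin remodeller gene and host of mir-965, scored 17.3, 29.2 and 55.1, and that of bun, a growth regulator gene and host of mir-967, scored 51.1, 47.1 and 104.7. Sxl, the sex determination switch and host of mir-4956, had 30.3, 31.7 and 61.2, and rhea, the talin gene and host of mir-190, had 28.7, 29.4 and 55.8.

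Grouped by known role, 32 clusters were listed, of which 8 (25%) had a reproducible summit within 5 kb; of the 171 clusters with no listed microRNA 20 (11.7%) did. The lists were drawn up by role from general knowledge, but with earlier results of these data known. With few listed clusters, these shares are a description, and no test was made. Of 11 clusters that act on growth and cell death, mir-8 and bantam had one, and of 9 neural and sense organ clusters, mir-9a and mir-279 with mir-996. Among 3 muscle and heart clusters only mir-92a with mir-92b had one. Of 6 clusters in metabolism and ageing it was mir-375, mir-305 with its cluster, and mir-33. The listed part of the mir-34 cluster does not count, since its peak was near mir-317, which is in no list.

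The let-7 complex, in which mir-100, mir-let7 and mir-125 are cut from 1 transcript that times late development, had no reproducible summit within 5 kb and no pooled one within 1 kb. The pooled region nearest to mir-let7 was 1740 bp upstream with 19.5. In replicate 1 the nearest was 1475 bp upstream with 7.21, and in replicate 2 it was 251 bp downstream with 9.21. The replicate scores are at the low end of their lists, which start at 6.33 and 7.50.

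In the other direction, the annotated 3′ UTRs of ab were searched for the complement of the let-7 seed. They held 4 matches to bases 2 to 7 and, among these, 2 to all of bases 2 to 8, both followed by an A. The searches for the seeds of miR-100 and miR-125 gave 0. The 2 longer matches have these letters in capitals, within 30 bases on the plus strand of dm6, the strand of ab.
ab site 1, chr2L:11260059-11260088: actcaaccgaaCTACCTCagccagcgaaag
ab site 2, chr2L:11260632-11260661: ttagtaattttCTACCTCaattaatttaaa
A match of letters is a description and shows no binding. On the chromatin side, ab itself held 3 reproducible peaks, and 29 regions in the pooled list. The strongest peak scored 92.3 in replicate 2 and 102.8 pooled, with no matched summit in replicate 1.

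Other microRNAs with textbook roles had weak regions or none. For mir-1, the muscle microRNA, no reproducible summit lay within 5 kb, and its nearest regions were 436 bp downstream in the pooled list with 23.3, 428 bp in replicate 1 with 15.01 and 911 bp in replicate 2 with 20.1. mir-124, the nervous system microRNA, had no reproducible, pooled or replicate 2 region within 5 kb and in replicate 1 a region of 8.15 at 331 bp upstream. mir-184, which acts in the female germ line, had its nearest pooled region at 3350 bp upstream with 17.5; its nearest region was 743 bp away in replicate 1 with 15.5 and 3350 bp away in replicate 2 with 11.8. The cluster of mir-309, which clears maternal messages in the early embryo, had a pooled region of 19.8 at 314 bp from its nearest hairpin. That region was 1304 bp from mir-309 itself, for which replicate 1 had its nearest region at 3001 bp with 8.58 and replicate 2 at 1343 bp with 11.1.

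Of 4 Hox-linked clusters listed, all had a pooled region within 1 kb, where 35.5% of all clusters did, and 0 had a reproducible summit within 5 kb, where 14.3% did. With 4 clusters, of which mir-iab-4 and mir-iab-8 are 1 locus on opposite strands, a count of 0 is near that share. mir-10, which lies in the Antennapedia complex, had a region at 205 bp upstream with 32.3 pooled, at 144 bp with 16.6 in replicate 1 and at 210 bp with 17.5 in replicate 2. mir-iab-4, in the bithorax complex, and mir-iab-8 on its opposite strand share a region 838 bp away with 44.4 pooled; each replicate had its summit at 854 bp, with 22.5 in replicate 1 and 15.3 in replicate 2.

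Of 64 clusters with a pooled region but no reproducible summit within 1 kb, scores of the strongest region ran from 15.1 to 49.5 with a median of 21.6. The 10 highest began with mir-2496 (687 bp upstream, 28.8 in replicate 1, 26.9 in replicate 2 and 49.5 pooled) and mir-4949 (376 bp upstream, 21.8, 23.4 and 47.8). The mir-iab-4 and mir-iab-8 region and the inner bantam region came next. mir-308, in a ribosomal protein gene, RpS23, followed with 37.0 pooled, 22 bp from a start. The last of the 10 were mir-4962 with 36.1, mir-4985 with 34.1, mir-4959 with 33.7 and mir-966 with 33.5, the last with no replicate 1 summit within 200 bp. The weakest reproducible peak within 1 kb of a hairpin, at mir-8, scored 52.2, so the lists meet between these values.

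By seed, the 481 mature RNAs fell into 426 seeds, of which 28 are shared by 2 or more clusters. Of these 28, 9 had a reproducible summit within 5 kb of at least 1 of their clusters, where 14.3% of all clusters had one. A shared seed has 2 or more clusters at which a summit can lie, which alone raises its share above that of single clusters. GACUAGA is found at mir-279 and mir-996 and also at mir-286 of the mir-309 cluster, which had none. AUUGCAC is found at mir-92a and mir-92b and at mir-310 to mir-313, and CUUUGGU at mir-9a, mir-9b and mir-9c; only the cluster of mir-92a and that of mir-9a had a summit. The most widely shared seed, AUCACAG, belongs to 14 genes in 7 clusters, among them the mir-2, mir-6, mir-11 and mir-13 families, which are known to repress pro-apoptotic genes. None of the 7 had a summit within 5 kb, which with 7 clusters is near the share of 14.3% over all clusters. GAACACA, at mir-317 and mir-4943, was the only shared seed with a peak at both clusters.

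Short sequence words within 50 bp of the summit were counted on both strands at the 33 peaks and at all 1664. GAGAG, bound by the GAGA factor, was found at 2 of 33 (6.06%) and at 11.4% of all peaks, and CGATA at 5 (15.2%) and 16.1%. CACGTG was at 1 (3.03%) and 1.2%, and CAGCTG at 1 (3.03%) and 4.15%. TATCGATA, which holds CGATA, and CAGGTAG, the word of the early activator Zelda, were at 0, where all peaks gave 1.86% and 0.481%. With 33 peaks, 1 peak is 3.03%, so these counts cannot separate the microRNA peaks from the rest. TATAAA was at 5 of 33, where all peaks gave 15.8%.

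Genes that make or use microRNAs were searched for summits inside or within 1 kb of them. Of 17 listed by role, 6 had a reproducible peak, where 13.2% of all protein-coding genes did; the list is short and no test was made. Those that cut the hairpins, drosha, pasha, Dcr-1 and loqs, had none, nor did Ranbp21, which is the export factor. AGO1, the Argonaute that microRNAs guide, had 1 (2R, 13953905 to 13954414) with 10.5 in replicate 1, 46.7 in replicate 2 and 54.4 pooled, 35 bp from the start of CG33155. gw, which binds AGO1 and recruits the silencing machinery, had 1 with 22.0, 45.6 and 55.4, 57 bp from its own start. Of the deadenylase that removes poly(A) tails, Not1 had 1 with 11.1, 50.1 and 53.2. That peak lay past the 3′ end of Not1, 3891 bp from the nearest protein-coding start, that of Alp6. Pop2, of the same deadenylase, had 1 with 30.9, 40.2 and 80.3, 23 bp from its own start. pAbp, the poly(A)-binding protein gene, had 1 with 26.9, 47.3 and 66.1. r2d2, a Dicer-2 partner in the siRNA pathway, had 1 with 59.0, 40.0 and 97.3, 31 bp from the start of its neighbour Herp. In all but r2d2 the score of replicate 2 was the higher, and at AGO1 and Not1 by over 4 times.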

How the data were processed

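Regions from 2 biological replicates of ab-eGFP embryos were deposited on builds dm3 and dm6; only dm6 was used. Per the deposited description files, the authors called relaxed regions against a control in each replicate and in the pool, and kept reproducible ones by the irreproducible discovery rate method. The signal of each region is the authors' own deposited score. The sources used here name no aligner, caller or threshold. The members and lists were chosen with earlier results of these data known.

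Summits were set against Ensembl release 115 genes with Python 3.11.15, numpy 2.4.6 and scipy 1.17.1, leaving out 485 entries that repeat mature RNAs inside hairpins as genes. Replicate summits within 200 bp were matched to a peak. Figures were drawn with matplotlib 3.10.9. The window and cluster functions were tested on simulated data. The text names every cluster with a reproducible summit within 1 kb and the 15 nearest at 1 to 5 kb. It also names the 10 strongest with a pooled region but no reproducible summit within 1 kb. Named too are 11 well-known microRNAs and the pathway genes with a peak. Other alternatives covered the window, score threshold, cluster definition, background and single replicates.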

Additional observations from a re-analysis of the deposited data

How the results depend on the processing

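With windows of 0.5 kb and 2 kb in place of 1 kb, the genes with a reproducible summit went from 9 to 4 and 17, the clusters from 8 to 4 and 15, the genes with a pooled region from 84 to 48 and 127, and the clusters with one from 72 to 43 at 0.5 kb. With only the peaks above the median score, 3 genes and 3 clusters had a summit within 1 kb and 14 clusters within 5 kb, and 41 clusters had such a pooled region. Of all bases, 2.3% lay within 1 kb of a summit, against 9.07% of genes. The median score of 65.9 over the 8 clusters was 28.6 to 41.6 in 1 replicate alone, where scores run lower. Regions in both replicates were at 55 clusters, and at 7 with the strongest 1664 of each. With 1 replicate alone, the count of genes within 1 kb was 10, of clusters within 1 kb 9, of clusters within 5 kb 31 to 38, and of clusters with a relaxed region 91 to 103. Leaving transposable elements out of the background, a setting added after seeing the data, gave 11.7% of genes. Of 33 alternatives run, 18 stayed within 1.5 times the reported value. No paired analysis was possible because the study has 1 group. Read depth is unknown, so no limit of detection can be given, and a weak region cannot be told apart from an absent one.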
